A study of Homo sapiens with 6 samples.

Results

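DNA replication licensing and fork genes are the 47 genes described here: the factors that load the replicative helicase onto DNA, those that start and copy the fork, the enzymes that supply its nucleotides, and the E2F regulators E2F1 and E2F2 with UHRF1. They were chosen by gene symbol from a list of these functions, and all 47 were found among the 59050 symbols of the count files. Each of them also passed the filter on low counts, which left 17809 genes for testing. The libraries came from H2122, a human lung cancer cell line in culture. In 3 libraries the cells carried a SMARCA4 knockout, and in the other 3 they were the parental line, labelled WT; both groups had been given vehicle. How the knockout was made and whether it is 1 clone is not in the labels. Nor do they state that replicates were grown apart: the p-values reflect library-to-library spread alone, which may be technical. The titles carry a number that is 1 in every knockout title and 1, 3 and 6 in those of parental replicates 1, 2 and 3, with no statement of what it marks.

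Each library held 55120937 to 59917980 reads assigned to genes, so 3 counts correspond to 0.0501 to 0.0544 CPM (gene reads scaled to a common library total with TMM factors, the level used throughout). SMARCA4, an ATPase of SWI/SNF chromatin remodellers, was read at 20.7, 19.3 and 24.9 CPM in the knockout libraries, against 232, 214 and 335 CPM in the parental ones (log2 fold change -3.59, SE 0.22, edgeR quasi-likelihood adjusted p = 0.000176). Epithelial markers of a lung carcinoma summed to 3168 to 3431 CPM in the knockout libraries and 7131 to 8247 CPM in the parental libraries, all 9 of them with reads in both groups. Of these, NKX2-1, a lung lineage factor, had 1 read over the knockout libraries and 37 over the parental ones. The sums were mostly KRT7, KRT8 and KRT18, joined in the parental libraries by KRT19, which was above KRT18 there. CDH1 read 5.44 to 5.65 CPM in the knockout libraries against 140 to 441 CPM in the parental ones, and KRT19 31.2 to 32.5 against 1257 to 1473 CPM. MUC1 read 8.85 to 12.3 against 125 to 550.5 CPM, and EPCAM 68.9 to 78.6 against 331 to 409 CPM. Only NAPSA had more reads in the knockout, 204 against 145. The 5 haematopoietic markers summed to 0.308 to 0.596 CPM in the knockout and 0.595 to 1.18 CPM in the parental libraries, mostly CD14 (67 knockout and 132 parental reads), with PTPRC at 0 reads in all 6. Endothelial markers summed to 0.907 to 1.40 CPM in the knockout and 0.510 to 0.560 CPM in the parental libraries. Fibroblast markers summed to 53.3 to 58.0 CPM in the knockout libraries, mostly LUM and COL1A1, and to 39.2 to 110.0 CPM in the parental ones, mostly COL1A1. Parental replicate 3, the library titled with the number 6, was the library that component 2 of a principal component analysis set off from the rest (19.0% of the variance). The counts over the 47 genes and their median change are therefore given with and without it.

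Eukaryotic cells prepare their origins before S phase. The origin recognition complex, with CDC6 and CDT1, loads the MCM ring in an inactive form, a step called licensing; the kinase CDC7, CDC45 and the GINS complex then turn the ring into a moving helicase. Polymerase alpha with primase lays primers, polymerases epsilon and delta copy the strands on the PCNA clamp, and FEN1 and LIG1 finish the lagging strand. Many of these genes are known E2F targets, transcribed as cells pass from G1 into S phase and low in cells that have left the cycle.

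None of the replication genes passed the test between knockout and parental libraries. For most of these genes the widest difference between libraries was within the parental group. All 47 had their highest level in parental replicate 3, where 32.3% of all genes tested did. In that library 38 of the 47 stood at least 2-fold above the mean of parental replicates 1 and 2, against 11% of genes tested, and none stood at or below a level 2-fold lower, against 12.9%. The median fold was 3.49 over the 47 genes and 0.995 over all genes tested. The 3 knockout libraries lay above both of these parental replicates and below parental replicate 3 for 34 of the 47 genes, as they did for 11.5% of genes tested. With RLE in place of TMM scaling, that count was 28, against 10.1% of genes tested, and with upper-quartile factors it was 34, against 11.1%. Summed over the 47 genes, the level was 1770, 1657 and 1620 CPM in the knockout libraries, against 1425, 1372 and 4718 CPM in parental replicates 1, 2 and 3. In such bulk libraries, more cells in S phase and more RNA per cell cannot be told apart. The comparison of parental replicate 3 with the other parental libraries is of 1 library with 2 and carries no test.

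**Figure D1:**
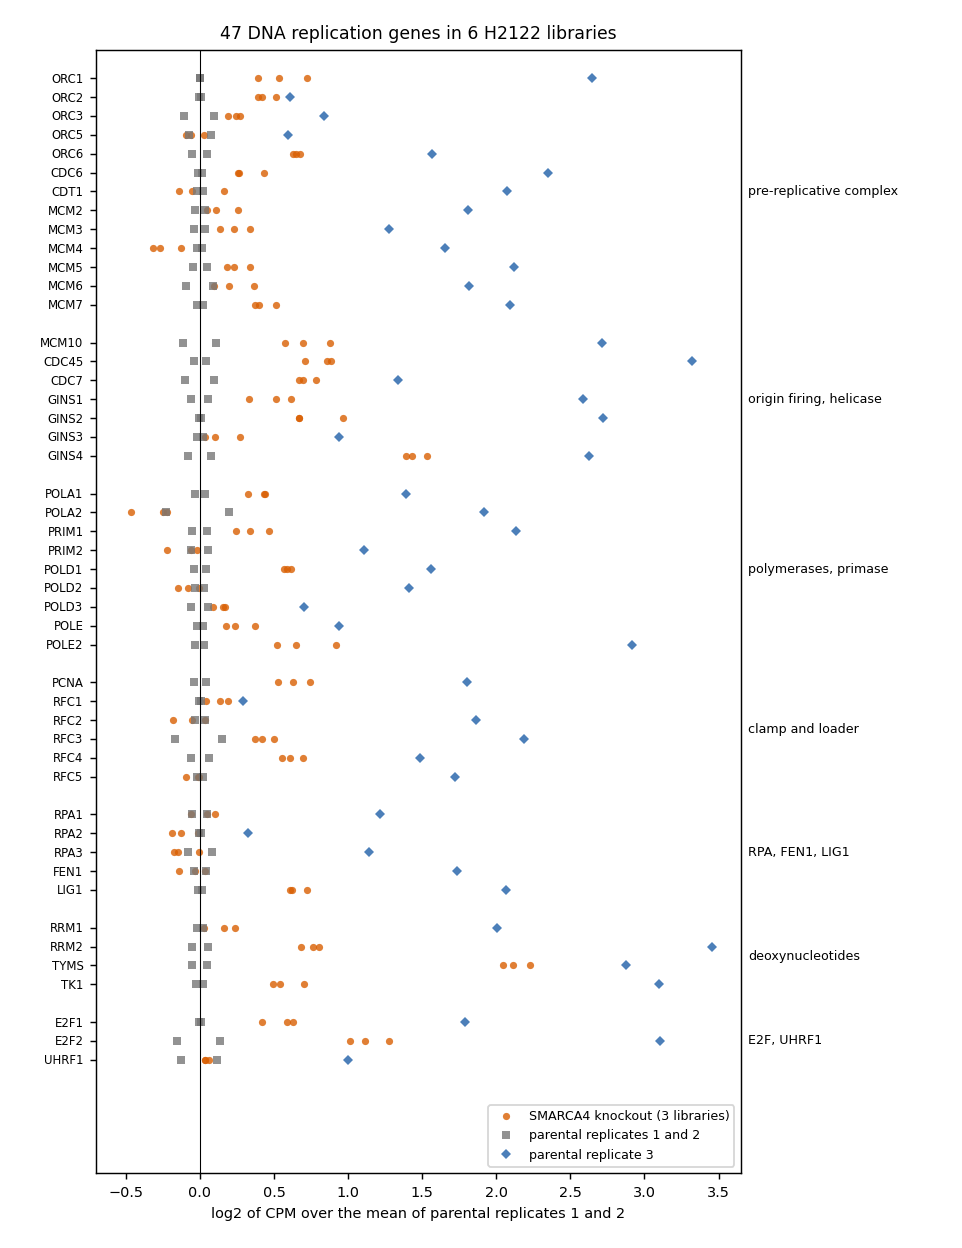
Level of each of the 47 genes in each library as the log2 of its CPM over the mean of parental replicates 1 and 2, with 3 knockout libraries (circles), parental replicates 1 and 2 (squares) and parental replicate 3 (diamonds), grouped by role. The diamond is the rightmost point in all 47 rows, and in 34 rows the circles lie between the squares and the diamond.

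With all 6 libraries fitted, 0 of the 47 genes passed an adjusted p of 0.05 by edgeR's quasi-likelihood test, where 27.6% of all genes tested did (13.3% rising and 14.3% falling). None passed an unadjusted p of 0.05 either, and DESeq2 and limma-voom also called 0 after adjustment, with 4 and 0 genes at an unadjusted p under 0.05. The fitted log2 fold change of the knockout was below 0 for 42 of the 47 genes, with a median of -0.63 against 0.02 over all genes tested. Its 95% interval held 0 for all 47. On simulated counts for this comparison, the edgeR test called 0% of genes changed 1.5-fold and 24.2% of those changed 2-fold. The changed genes were drawn at random from all genes tested, so these are not rates for the 47 genes. The lack of calls among the 47 genes therefore does not show that changes of such size were absent. For RRM2 the interval ran from -3.70 to 0.97 and for MCM7 from -2.06 to 0.80, so this fit sets its limits for these genes on both sides of 0. The groups failed to overlap for 2 of the 47, MCM4 and RPA2, against 49.8% of all genes tested; with RLE factors the count was 7, against 49.9%, and with upper-quartile factors 3, against 50.8%.

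Without parental replicate 3, most of the genes that passed rose. In that fit 28 of the 47 genes rose, 3 fell and 16 did not pass, where 30.8% of 18372 genes tested rose and 30.8% fell. The median log2 fold change was 0.27, against 0.04 over all genes tested in that fit. Only 2 parental libraries remained, and 61.6% of all genes tested passed in either direction. The rises ran from 0.19 (MCM3) to 2.08 (TYMS) on the log2 scale, and 3 of them, TYMS, GINS4 and E2F2, were of 1 or more. With 6 libraries 24 of these 28 genes had a change below 0, none passing; the other 4 were ORC2, CDC7, TYMS and GINS4, the last of which turned below 0 with RLE factors. Of the 28 rises, 22 kept their call in all 11 other settings tried on these 5 libraries. MCM3, MCM5, ORC3, POLE, PRIM1 and RFC3 lost it in at least 1 of them, each when 1 further library was left out. Of the 3 falls, those of POLD2 and RPA2 were lost in the same way, and that of MCM4 was kept.

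**Figure D2:**
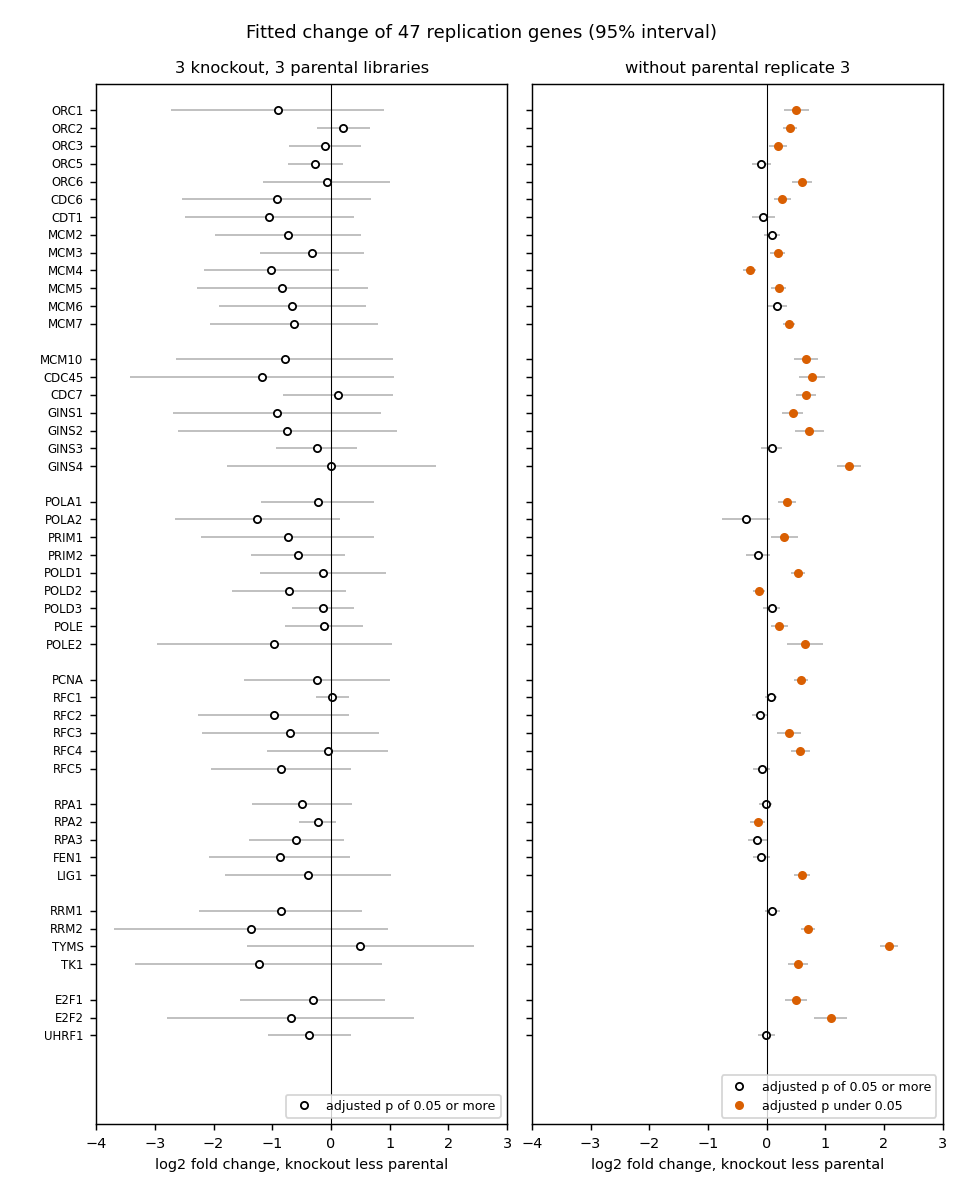
For each gene, the fitted log2 fold change (knockout over parental) with its 95% interval, from all 6 libraries (left) and without parental replicate 3 (right); filled points passed an adjusted p of 0.05. On the left every interval crosses 0 and no point is filled, and on the right 28 filled points lie above 0 and 3 below.

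Promoter sequences were looked at because all 47 genes were highest in parental replicate 3, while the list was drawn up by function. RefSeq promoter windows (GRCh38.p14, 250 bases before to 50 after a start) were matched by symbol for 41 of the 47 genes, giving 53 windows. An E2F-type element, searched as TTTCGCGC, TTTGGCGC or TTCCCGCC on both strands, was in 45.3% of these windows, against 6.09% of the 16522 windows of genes tested and 4.24% of all 35116. The CCAAT box, searched as CCAAT on both strands, was in 58.5% of the windows, against 34.3% of those of genes tested. A CHR-type element, searched as TTTGAA or TTCGAA on both strands, was in 3.77% of them, against 12.1%. The first pair of E2F-type words can overlap each other on opposite strands, and TTCCCGCC can run into a CCAAT box. The 120 bases before the start are shown for 8 genes with an E2F-type element there, from 5 of the roles, and for RRM2 and RFC1, which had the highest and the lowest fold of parental replicate 3 over the other parental libraries and no such element. Capitals mark E2F-type elements and CCAAT boxes on either strand; sequences run 5′ to 3′ on the gene's strand.
CDT1 (chr16:88803669-88803788, plus strand): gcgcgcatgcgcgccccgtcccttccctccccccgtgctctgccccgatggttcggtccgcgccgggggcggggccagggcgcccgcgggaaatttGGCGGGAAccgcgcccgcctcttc
MCM6 (chr2:135876444-135876563, minus strand): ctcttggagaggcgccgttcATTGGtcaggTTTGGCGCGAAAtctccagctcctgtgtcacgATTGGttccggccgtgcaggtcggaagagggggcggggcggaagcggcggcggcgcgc
MCM7 (chr7:100101398-100101517, minus strand): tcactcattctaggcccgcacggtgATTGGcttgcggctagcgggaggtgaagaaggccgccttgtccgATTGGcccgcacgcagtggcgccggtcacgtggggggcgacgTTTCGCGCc
GINS2 (chr16:85688955-85689074, minus strand): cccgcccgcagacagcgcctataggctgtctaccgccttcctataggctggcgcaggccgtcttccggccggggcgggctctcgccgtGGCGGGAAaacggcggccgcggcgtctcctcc
PRIM1 (chr12:56752324-56752443, minus strand): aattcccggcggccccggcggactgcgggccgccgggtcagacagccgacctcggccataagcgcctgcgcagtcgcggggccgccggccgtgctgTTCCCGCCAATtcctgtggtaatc
PCNA (chr20:5126623-5126742, minus strand): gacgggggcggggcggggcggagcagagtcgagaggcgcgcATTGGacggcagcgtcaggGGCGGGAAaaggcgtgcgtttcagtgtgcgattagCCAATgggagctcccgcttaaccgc
E2F1 (chr20:33686386-33686505, minus strand): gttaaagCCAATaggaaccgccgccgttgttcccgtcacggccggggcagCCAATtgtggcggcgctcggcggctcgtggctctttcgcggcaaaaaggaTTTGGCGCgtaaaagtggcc
E2F2 (chr1:23531234-23531353, minus strand): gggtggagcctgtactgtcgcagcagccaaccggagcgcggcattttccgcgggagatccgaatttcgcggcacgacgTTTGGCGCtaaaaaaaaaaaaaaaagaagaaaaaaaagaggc
RRM2 (chr2:10122619-10122738, plus strand): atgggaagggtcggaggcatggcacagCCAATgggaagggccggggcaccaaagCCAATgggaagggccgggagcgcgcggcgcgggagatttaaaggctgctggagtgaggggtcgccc
RFC1 (chr4:39366363-39366482, minus strand): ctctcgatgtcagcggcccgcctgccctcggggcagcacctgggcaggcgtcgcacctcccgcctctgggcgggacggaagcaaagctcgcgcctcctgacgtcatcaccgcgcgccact

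In MCM6 the TTTGGCGC and TTTCGCGC words share bases, and in PRIM1 the E2F-type word shares bases with the CCAAT box. Genes with and without an E2F-type match did not part cleanly by level. The median fold of parental replicate 3 over the other parental libraries was 3.72 for the 22 genes with a match (1.92 to 8.62), and 2.96 for the 19 without (1.22 to 10.97). Among those without a match were RRM2, CDC45, TK1 and TYMS, with folds of 10.97, 9.996, 8.56 and 7.33. A match is only a run of letters in this window, and the lack of 1 says nothing of the factor.

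Licensing genes were represented by 5 subunits of the origin recognition complex, CDC6, CDT1 and the 6 subunits of the MCM ring. ORC1, the subunit whose level is known to change through the human cell cycle, was measured at 12.1, 10.7 and 9.64 CPM in the knockout libraries, against 7.34, 7.35 and 45.99 CPM in parental replicates 1, 2 and 3. Parental replicate 3 was thus 6.26-fold above the other parental libraries for ORC1, but 1.51 to 2.96-fold for ORC2, ORC3, ORC5 and ORC6. CDC6, the ATPase that brings the ring to the origin, read 33.9, 30.0 and 30.2 CPM in the knockout libraries, against 25.4, 24.9 and 128 CPM in the parental ones. CDT1, its partner in loading, read 15.1, 12.3 and 13.1 CPM in the knockout libraries, against 13.7, 13.4 and 56.9 CPM in the parental ones. For CDC6 the knockout libraries all lay above parental replicates 1 and 2, and for CDT1 they straddled them. Without parental replicate 3, CDC6 rose by 0.27 on the log2 scale (adjusted p = 0.00267), ORC1 by 0.51 (0.000684), ORC2 by 0.40 (3.16e-05) and ORC6 by 0.60 (3.24e-05). CDT1 did not pass in that fit (-0.05, 95% interval -0.24 to 0.14), nor did ORC5 (-0.09, interval -0.25 to 0.07).

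The MCM ring is built from 1 copy of each of its 6 subunits. For their messages, parental replicate 3 stood 2.42-fold (MCM3) to 4.34-fold (MCM5) above the other parental libraries. MCM7 (chromosome 7, 100092728 to 100101940 on GRCh38) was read at 133, 121 and 123 CPM in the knockout libraries, against 91.9, 94.3 and 397 CPM in the parental ones. Its 6-library log2 fold change was -0.63 (SE 0.59, adjusted p = 0.477), and it rose by 0.38 (SE 0.05, adjusted p = 2.75e-05) without parental replicate 3. MCM4 (chromosome 8, 47960185 to 47978160) went the other way, with 135, 122 and 118 CPM in the knockout libraries against 149, 146 and 464 CPM in the parental ones. It is 1 of the 2 genes whose knockout libraries all lay below all parental libraries; its change was -1.01 (adjusted p = 0.169) with 6 libraries and -0.29 (adjusted p = 0.000353) without parental replicate 3. The level of the knockout over the mean of parental replicates 1 and 2 ran from 0.848-fold for MCM4 to 1.35-fold for MCM7 among the 6 ring genes. MCM3 (0.19) and MCM5 (0.20) also rose in that fit, while MCM2 (0.09, interval -0.04 to 0.22) and MCM6 (0.17, adjusted p = 0.0684) did not pass.

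For all 7 origin firing genes the knockout libraries lay between parental replicates 1 and 2 and parental replicate 3. CDC45, which joins the ring and GINS in the active helicase, was measured at 7.44, 6.59 and 7.30 CPM in the knockout libraries, against 4.13, 3.92 and 40.2 CPM in parental replicates 1, 2 and 3. MCM10, a factor needed to activate the helicase, read 21.1, 18.6 and 17.1 CPM in the knockout libraries, against 12.3, 10.6 and 75.1 CPM in the parental ones. GINS1 read 20.7, 19.3 and 17.1 CPM in the knockout libraries, against 14.1, 13.0 and 81.3 CPM in the parental ones. In all 3 genes every knockout library was above parental replicates 1 and 2, and the knockout mean was 0.177-fold (CDC45) to 0.252-fold (MCM10) the level of parental replicate 3. The 6-library changes were -0.79 (adjusted p = 0.494) for MCM10 and -0.93 (0.40) for GINS1. Without parental replicate 3, MCM10 rose by 0.67 (adjusted p = 6.58e-05), CDC45 by 0.77 (3.94e-05), GINS1 by 0.44 (0.000499), GINS2 by 0.72 (0.00013) and CDC7, the kinase that phosphorylates the ring, by 0.67 (1.48e-05).

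The GINS subunits did not keep together. GINS4 read 13.6, 13.2 and 14.5 CPM in the knockout libraries, against 4.76, 5.29 and 31.1 CPM in the parental ones, so that its knockout level was 2.74-fold that of parental replicates 1 and 2. Its 6-library change was 0.01 (interval -1.77 to 1.79, adjusted p = 0.996), and without parental replicate 3 it rose by 1.41 (SE 0.09, adjusted p = 6.89e-08). GINS3, at the other end, read 13.2, 11.7 and 11.1 CPM in the knockout libraries, against 11.1, 10.8 and 20.9 CPM in the parental ones, and did not pass in either fit (0.09 without parental replicate 3, interval -0.09 to 0.27). In GENCODE 29, 23.6% of the exon bases of GINS4 and 10.9% of those of GINS3 are shared with genes on the opposite strand. Strand use in the counting is not given in the sources used here. Whether reads in these shared bases were counted or set aside as ambiguous is therefore not known.

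Polymerase and primase genes varied by subunit. POLE, the catalytic subunit of the leading-strand polymerase epsilon, was measured at 73.0, 70.1 and 80.3 CPM in the knockout libraries, against 61.1, 62.9 and 119 CPM in the parental ones. Its partner POLE2 read 5.18, 3.92 and 4.29 CPM in the knockout libraries, against 2.68, 2.80 and 20.7 CPM in the parental ones, so parental replicate 3 was 7.56-fold above the other parental libraries for POLE2 and 1.92-fold for POLE. POLD2, an accessory subunit of the lagging-strand polymerase delta, read 104, 98.8 and 94.4 CPM in the knockout libraries, against 107, 102 and 278 CPM in the parental ones. The knockout libraries thus overlapped parental replicates 1 and 2 for POLD2 and lay above them for POLE and POLE2. With 6 libraries POLE changed by -0.12 (interval -0.79 to 0.54, adjusted p = 0.781) and POLD2 by -0.71 (interval -1.69 to 0.26, adjusted p = 0.247). Without parental replicate 3, POLD1, the catalytic subunit of polymerase delta, rose by 0.54 (adjusted p = 3.32e-06), POLE2 by 0.66 (0.00147), POLE by 0.22 (0.0131), POLA1 by 0.35 (0.00088) and PRIM1 by 0.30 (0.0238). POLD2 fell by 0.13 in that fit (adjusted p = 0.0345), and POLD3, POLA2 and PRIM2 did not pass. POLA2 was the lowest of the 47 genes, with 67 to 74 reads in the knockout libraries and 78 to 329 in the parental ones, and 35.1% of its exon bases are shared with another gene.

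PCNA (chromosome 20, 5114953 to 5126626), the sliding clamp, was measured at 134, 124 and 116 CPM in the knockout libraries, against 82.6, 78.0 and 280.4 CPM in parental replicates 1, 2 and 3. The knockout libraries lay above parental replicates 1 and 2 and at 0.444-fold the level of replicate 3. Its change was -0.24 (SE 0.51, adjusted p = 0.768) with 6 libraries; without parental replicate 3 it rose by 0.59 (SE 0.06, adjusted p = 1.80e-06). RFC1, the large subunit of the loader that opens the clamp, was the flattest of the 47 genes, with 82.7, 79.9 and 74.8 CPM in the knockout libraries, against 73.0, 72.1 and 88.7 CPM in the parental ones. Its 95% interval was -0.26 to 0.31 with 6 libraries (change 0.02, adjusted p = 0.910), the narrowest limits of any member. RFC1 thus stood 1.22-fold above in parental replicate 3, against 2.80 to 4.56-fold for the small loader subunits RFC2 to RFC5. RFC4 rose by 0.57 (adjusted p = 2.60e-05) and RFC3 by 0.38 (0.00367) without parental replicate 3, while RFC2 (-0.11) and RFC5 (-0.08) did not pass. PCNA has 3 named pseudogenes in GENCODE 29, and 8 of the 47 genes have at least 1, which can draw or lose reads.

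Among the 5 genes of the single-strand binding protein RPA and the lagging-strand enzymes, the knockout libraries lay between the parental ones for 1, LIG1. RPA1, its large subunit, read 85.5, 82.3 and 76.2 CPM in the knockout libraries, against 82.5, 76.8 and 185 CPM in the parental ones. RPA2 read 27.5, 25.5 and 24.4 CPM in the knockout libraries, against 27.9, 27.6 and 34.8 CPM in the parental ones, the second gene in which the groups did not overlap. FEN1, the flap nuclease, read 26.5, 23.5 and 25.4 CPM in the knockout libraries, against 26.7, 25.2 and 86.4 CPM in the parental ones. For all 3 genes the knockout libraries lay close to parental replicates 1 and 2. RPA1 did not pass in either fit (-0.50, adjusted p = 0.346 with 6 libraries; -0.02, interval -0.13 to 0.10 without parental replicate 3), and RPA2 fell by 0.16 without parental replicate 3 (adjusted p = 0.0403). FEN1 did not pass in either fit. LIG1 (chromosome 19, 48115445 to 48170603), the ligase that seals the fragments, differed from them, with 39.3, 39.6 and 42.5 CPM in the knockout libraries, against 25.6, 26.0 and 108 CPM in the parental ones. Its change was -0.39 (adjusted p = 0.659) with 6 libraries, and it rose by 0.60 (SE 0.06, adjusted p = 3.58e-06) without parental replicate 3.

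The 4 genes of deoxynucleotide supply had the highest median fold of parental replicate 3 over the other parental libraries among the 7 roles, at 7.94, and in all 4 the knockout libraries lay between. RRM2 (chromosome 2, 10120698 to 10131419), the small and cell-cycle-regulated subunit of ribonucleotide reductase, was read at 77.1, 74.7 and 70.8 CPM in the knockout libraries, against 45.7, 42.5 and 484 CPM in parental replicates 1, 2 and 3. RRM1, the large subunit, read 43.0, 41.0 and 37.2 CPM in the knockout libraries, against 37.1, 36.0 and 147 CPM in the parental ones. Parental replicate 3 was thus 10.97-fold above the other parental libraries for RRM2, the highest fold of the 47 genes, and 4.02-fold for RRM1. The 6-library changes were -1.36 (SE 0.96, adjusted p = 0.349) for RRM2 and -0.86 (SE 0.57, adjusted p = 0.319) for RRM1. Without parental replicate 3, RRM2 rose by 0.70 (adjusted p = 1.86e-07) and RRM1 did not pass (0.10, interval -0.04 to 0.23). TK1, the thymidine kinase of the salvage route, read 18.5, 16.0 and 16.5 CPM in the knockout libraries, against 11.6, 11.2 and 97.3 CPM in the parental ones, and rose by 0.53 (adjusted p = 7.46e-05) without parental replicate 3.

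TYMS (chromosome 18, 657604 to 673578), the thymidylate synthase that makes dTMP and is the target of fluoropyrimidine drugs, was the member that stood furthest from parental replicates 1 and 2 in the knockout. It was measured at 43.2, 39.9 and 38.0 CPM in the knockout libraries, against 9.53, 8.89 and 67.5 CPM in the parental ones. The knockout level was 4.38-fold that of parental replicates 1 and 2, and 0.598-fold that of replicate 3. The change was 0.50 (interval -1.44 to 2.43, adjusted p = 0.687) with 6 libraries, and TYMS rose by 2.08 (SE 0.07, adjusted p = 1.07e-10) without parental replicate 3, the largest change of the 47 genes in that fit. Some 46.6% of the exon bases of TYMS are shared with ENOSF1 and TYMSOS on the opposite strand. ENOSF1 read 36.4, 36.5 and 43.8 CPM in the knockout, against 32.6, 35.9 and 37.8 CPM in the parental libraries. TYMSOS read 1.20, 1.29 and 1.24 CPM in the knockout, against 0.508, 0.770 and 2.62 CPM in the parental libraries.

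E2F1 and E2F2 followed the same order of libraries. E2F3, from the list of G1/S control genes, did not. It read 35.1, 36.8 and 33.1 CPM in the knockout libraries, against 39.7, 38.2 and 40.7 CPM in the parental ones. Its edgeR change was -0.20 (adjusted p = 0.00758) without parental replicate 3. E2F1 (chromosome 20, 33675683 to 33686404) was measured at 16.5, 14.7 and 17.0 CPM in the knockout libraries, against 10.9, 11.1 and 38.0 CPM in parental replicates 1, 2 and 3. E2F2 read 6.89, 5.75 and 6.16 CPM in the knockout libraries, against 3.13, 2.56 and 24.6 CPM in the parental ones. In both, the knockout libraries lay between the other parental libraries and parental replicate 3. E2F1 changed by -0.31 (SE 0.51, adjusted p = 0.690) with 6 libraries. It rose by 0.50 (adjusted p = 0.000209) and E2F2 by 1.09 (adjusted p = 1.17e-05) without parental replicate 3. UHRF1, which guides maintenance methylation behind the fork, did not: it read 46.5, 47.5 and 46.6 CPM in the knockout libraries, against 49.3, 41.7 and 90.7 CPM in the parental ones, with a change of -0.37 (adjusted p = 0.399) with 6 libraries and 0.00 (interval -0.15 to 0.14) without parental replicate 3.

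**Figure D3:**
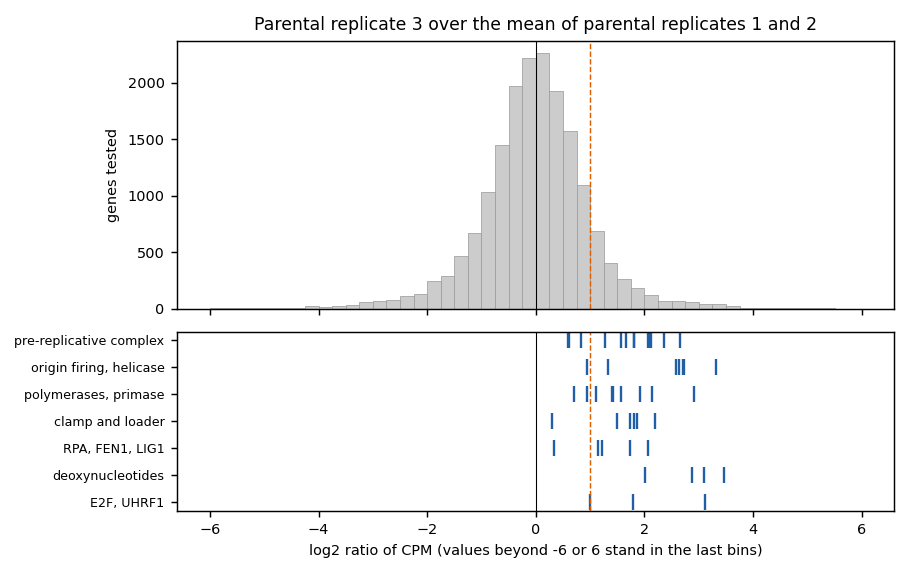
Log2 ratio of CPM in parental replicate 3 over the mean of parental replicates 1 and 2, for all 17809 genes tested (top, genes per bin) and for each of the 47 genes by role (bottom, 1 tick per gene); the dashed line marks a 2-fold ratio. All 47 ticks lie right of 0 and 38 at or beyond the 2-fold line, where the histogram centres on 0.

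The 9 genes under 2-fold in parental replicate 3 were RFC1, RPA2, ORC5, ORC2, POLD3, ORC3, GINS3, POLE and UHRF1. UHRF1 was the nearest to that fold, at 1.995. The 12 genes at 5-fold or more were RRM2, CDC45, E2F2, TK1, POLE2, TYMS, GINS2, MCM10, ORC1, GINS4, GINS1 and CDC6. Subunits of 1 complex were found on both sides: ORC1 with ORC2, ORC3 and ORC5, POLE2 with POLE, and GINS1, GINS2 and GINS4 with GINS3.

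Levels were compared between genes per kilobase of annotated exon (CPM per kb, exon bases merged over GENCODE 29 transcripts, which is not necessarily the annotation used for counting). On this scale PCNA was the highest member, at 84.7 CPM per kb in the knockout, 54.6 in parental replicates 1 and 2 and 191 in parental replicate 3. POLA2 was the lowest, at 0.216 in the knockout, 0.267 in parental replicates 1 and 2 and 1.01 in parental replicate 3. Of its exon bases, 35.1% are shared with another gene, and the full exon length was used here. The ring genes spanned 4.90 (MCM5) to 28.6 (MCM7) CPM per kb in the knockout, and 4.12 to 21.2, again from MCM5 to MCM7, in parental replicates 1 and 2. RRM1 and RRM2 stood close together at 9.67 and 13.9 in the knockout and at 8.75 and 8.29 in parental replicates 1 and 2, but at 35.2 and 90.9 in parental replicate 3. On this scale the order of RRM1 and RRM2 therefore differed between these parental libraries. In GENCODE 29, 20.2% of the exon bases of RRM2 are shared with another gene, against 1.51% of those of RRM1. RRM2 also has 3 named pseudogenes. Whether these change the order of 2 such close values in parental replicates 1 and 2 was not tested.

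**Figure D4:**
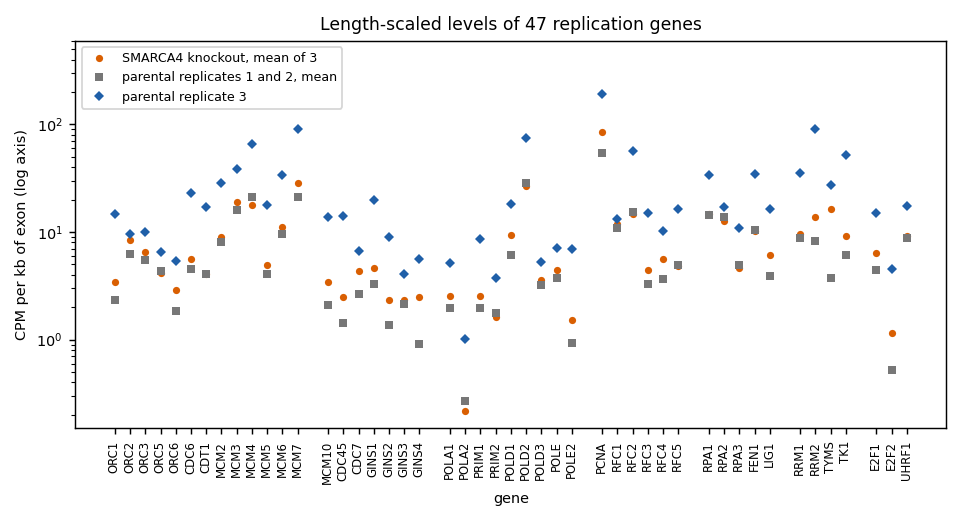
Level of each of the 47 genes as CPM per kb of exon on a log axis, for the mean of the 3 knockout libraries (circles), the mean of parental replicates 1 and 2 (squares) and parental replicate 3 (diamonds). Levels run from 0.216 for POLA2 to 84.7 for PCNA in the knockout, and the diamond is the highest of each set of points.

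Other genes of the same pathways were read from lists of neighbours. Among 27 further replication factors tested on 6 libraries, 26 missed the threshold and 1 fell, against 14.3% of all genes tested. It was TOP1, topoisomerase I, at 173, 175 and 163 CPM in the knockout libraries against 239.9, 219 and 311 CPM in the parental ones (-0.59, adjusted p = 0.0315; -0.48, adjusted p = 2.60e-06 without parental replicate 3). Its call was lost without any 1 of the knockout libraries or parental replicate 1, and with the replicate block. In parental replicate 3, 16 of the 27 stood 2-fold or more above its fellow parental libraries; leaving it out, 13 rose and 3 fell, against 30.8% of all genes tested in each direction. Of 16 genes of replication-coupled chromatin and nucleotides, only TK2, the mitochondrial thymidine kinase, passed with 6 libraries (13.3% of all genes tested rose), at 26.9, 26.3 and 27.5 CPM in the knockout libraries against 13.1, 13.4 and 9.36 CPM in the parental ones (1.17, adjusted p = 0.00341; 0.98, adjusted p = 5.69e-08 without parental replicate 3). In parental replicate 3, TK2 stood at 0.707-fold the other parental libraries. Without that library 8 of the 16 rose and 2 fell, against the same 30.8% in each direction.

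Of 32 genes of G1/S control, 30 were tested, and 1 rose, 1 fell and 28 did not pass with 6 libraries, against 13.3% of all genes tested rising and 14.3% falling. CDKN1B, which encodes the CDK inhibitor p27, rose, with 61.7, 64.9 and 59.8 CPM in the knockout libraries against 35.99, 34.9 and 26.4 CPM in the parental ones (0.94, adjusted p = 0.00479; 0.76, adjusted p = 9.16e-08 without parental replicate 3). E2F7, an E2F family repressor, fell, with 12.6, 12.9 and 12.2 CPM in the knockout libraries against 31.9, 34.1 and 36.8 CPM in the parental ones (-1.45, adjusted p = 0.000273; -1.45, adjusted p = 1.11e-09 without parental replicate 3). Both calls held with each library left out in turn; with RLE factors and with DESeq2, 2 and 3 genes of the list fell. CDKN2A and CDKN2B, inhibitors of CDK4 and CDK6, had 1 read and 0 reads over all 6 libraries and were not tested. Leaving out parental replicate 3, 16 of the 30 rose and 6 fell, against 30.8% each way over all genes tested. In that library, 10 of the 30 were at least 2-fold above and 1, CCND1, at least 2-fold below the other parental libraries. Of 20 mitotic genes 0 passed with 6 libraries by edgeR, DESeq2 or limma-voom, and 0 had an unadjusted edgeR p under 0.05, where 27.6% of all genes tested passed by edgeR; MKI67 read 123, 118 and 103 CPM in the knockout libraries against 79.3, 65.5 and 683 CPM in the parental ones (-1.27, adjusted p = 0.355), and TPX2, a spindle factor, changed by -1.34 (adjusted p = 0.304). All 20 were at least 2-fold above the other parental libraries in parental replicate 3, with a median of 8.66-fold, against 3.49-fold for the 47 replication genes. Leaving that library out, 19 of the 20 rose, against 30.8% of all genes tested. Their part in the levels of the replication genes was not tested.

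**Figure D5:**
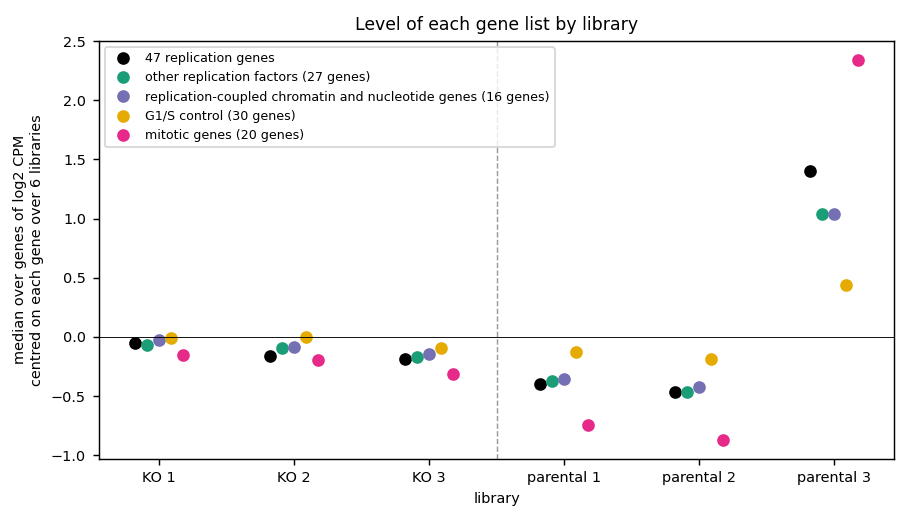
Median over the genes of each list of log2 CPM, centred on each gene's mean over the 6 libraries, for the 3 knockout libraries and, right of the dashed line, the 3 parental ones. The 47 replication genes stand at -0.05 to -0.19 in the knockout libraries, -0.40 and -0.47 in parental replicates 1 and 2, and 1.41 in parental replicate 3, where the mitotic genes stand at 2.34.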

How the data were processed

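RNA-seq of 3 SMARCA4 knockout and 3 parental H2122 libraries was used. Per the submitters' processing notes, TopHat2 2.1.1, HTSeq 0.11.0 and build hg38 were used; the deposited files hold raw read counts per gene symbol that the authors made, and no source used here gives the strand setting. The 5 unassigned read classes (13.8 to 15.3% of reads) were left out. After filterByExpr, TMM factors were computed and groups compared in edgeR 4.0.16 under R 4.3.3, by its quasi-likelihood F-test with robust dispersions and Benjamini-Hochberg adjustment over all 17809 genes tested; limma 3.58.1 (voom) and DESeq2 1.42.0 were alternatives. The fit was checked on simulated counts of knockout and parental libraries, with the changed genes drawn at random from all genes tested. It called 0% of 67 genes changed 1.5-fold, 24.2% of 66 changed 2-fold and 73.4% of 64 changed 4-fold, with 4 false calls. The 47 genes, the other gene lists and the comparison without parental replicate 3 were chosen with earlier results of these data known. Genes given in full were the 2 with the highest mean CPM in each role, since none passed, and the passing or highest genes of each other list; the other genes described were picked after their values were seen. Same-numbered libraries correlated at -0.0487, -4.24e-05 and -0.0743 in their deviations from group means, so replicate numbers were not taken as pairs. Counting intervals and floors cover counting error only. Exon lengths and overlaps came from GENCODE 29, promoters from RefSeq (GRCh38.p14).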

Additional observations from a re-analysis of the deposited data

How the results depend on the processing

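With 6 libraries, no alternative with all libraries called any of the 47 genes. Leaving out 1 library gave 0 to 28 rising and 0 to 3 falling, a median log2 fold change of -0.96 to 0.27, and 2692 to 11325 genes called; the upper ends came without parental replicate 3. With the replicate block 3040 genes and 0 of the 47 were called. The groups did not overlap for 7 members with RLE factors, against 49.9% of all genes tested. RFC1 was at -0.028 (RLE), -0.039 (no filter) and -0.034 (DESeq2), GINS4 at -0.032, -0.033 and -0.040, and PCNA at 0.030 (limma-voom) and 0.052 (replicate block); the causes were not tested. Leaving out 1 library moved the log2 fold change over -0.036 to 0.076 for RFC1, -0.40 to 1.41 for GINS4, -0.55 to 0.59 for PCNA, -0.61 to 0.50 for E2F1, -1.33 to 0.44 for GINS1, -0.73 to 0.60 for LIG1, -1.22 to 0.67 for MCM10, -0.97 to 0.38 for MCM7, -0.29 to 0.22 for POLE, -1.19 to 0.10 for RRM1, -1.84 to 0.70 for RRM2, -1.74 to 0.61 for MKI67 and -1.79 to 0.40 for TPX2. Without parental replicate 3, upper-quartile factors moved the median of all genes to 0.11 and that of the members to 0.34. They left 1 member falling. With TMM factors 3 members fell in that fit, against 30.8% of all genes tested. Upper-quartile factors also put CDT1 at 0.020, RPA1 at 0.056 and UHRF1 at 0.069, and limma-voom put UHRF1 at 0.000432. Leaving out 1 further library gave 1 to 5 falling, and -0.16 to 0.001374 for CDT1, -0.094 to 0.020 for RPA1 and -0.15 to 0.083 for UHRF1. Those alternatives were chosen after seeing the data. Where 1 parental library was left, it was assumed to vary like the knockout libraries. POLA2, with 67 to 74 reads in the knockout libraries, was the member with the lowest counts. As 35.1% of its exon bases are shared with another gene, its count may not reflect its level alone, which was not tested.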
